A study of Homo sapiens with 12 samples.

Results

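The 8 genes described here, KCNJ2, LRRC6, TP53I11, KREMEN1, STON2, DOCK5, GFOD1 and EPCAM, were nearly silent or low in CCRF-CEM leukemia cells and clearly transcribed in their SLFN11 knockout derivative. They were picked from 43827 gene places because their exon reads were far higher in untreated knockout cells than in untreated parent cells. That contrast therefore chose them, and it is described below without a test. The tested questions were whether the higher level was also present in camptothecin-treated cells, which the choice did not use, and in intron reads there. Further questions were how the 8 genes responded to the drug, and whether their chromosome neighbours shared the difference.

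CCRF-CEM is a human T lymphoblast leukemia line. The groups, each of 3 RNA-seq libraries, were SLFN11 gene knockout cells treated with DMSO (the solvent, called untreated here), wild-type parent cells treated with DMSO, knockout cells treated with 100 nM camptothecin for 4 h, and parent cells treated likewise. Camptothecin locks topoisomerase I onto nicked DNA and so stalls replication forks, and SLFN11, a putative helicase, makes cells sensitive to such damage. How the knockout was made, and whether it is 1 clone, is not stated in the labels. Nor do they say that replicates were separate cultures. A p-value therefore covers only the scatter of these libraries, which may be technical. In bulk RNA, fewer expressing cells and less RNA per expressing cell cannot be told apart.

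The 8 genes belong to no common pathway. KCNJ2 encodes an inward rectifier potassium channel that sets the resting membrane potential of muscle and other excitable cells. EPCAM is an adhesion molecule of epithelia, and KREMEN1 is a Dickkopf receptor that removes Wnt co-receptors from the cell surface. STON2 is an endocytic adaptor that sorts synaptotagmin at clathrin-coated pits, and DOCK5 is an exchange factor that activates the small GTPase RAC. LRRC6 helps to assemble the dynein arms of motile cilia, TP53I11 was named as a gene induced by p53, and GFOD1 encodes a protein with an oxidoreductase domain whose role is little known.

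The promoter sequences of 3 of the 8 genes could be read from RefSeq (build GRCh38.p14): 1 window for KCNJ2, 3 for STON2 and 3 for TP53I11, each covering the 250 bases before an annotated start. They show the start regions of genes that were low in the parent (KCNJ2 at 0 to 6 exon reads per library) and higher in the knockout. The window with the highest GC content of each gene is given 5′ to 3′ in the direction of transcription, at chr17:70169282-70169531 (+ strand) for KCNJ2, chr11:44950884-44951133 (- strand) for TP53I11 and chr14:81436466-81436715 (- strand) for STON2. Capitals mark matches, on either strand, to any of 7 motifs. The letters searched were TGANTCA for the AP-1 motif, GGGCGG for the GC box, CACGTG for the E-box, TATAAA for the TATA box, CCAAT for the box of that name, AGATAA for the motif of GATA factors and TGTGGT for the motif of RUNX factors.
KCNJ2: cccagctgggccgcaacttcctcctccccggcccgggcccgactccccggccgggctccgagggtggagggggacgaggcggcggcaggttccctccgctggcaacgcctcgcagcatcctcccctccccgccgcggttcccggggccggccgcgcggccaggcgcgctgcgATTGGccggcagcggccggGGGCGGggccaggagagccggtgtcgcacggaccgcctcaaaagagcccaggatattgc
TP53I11: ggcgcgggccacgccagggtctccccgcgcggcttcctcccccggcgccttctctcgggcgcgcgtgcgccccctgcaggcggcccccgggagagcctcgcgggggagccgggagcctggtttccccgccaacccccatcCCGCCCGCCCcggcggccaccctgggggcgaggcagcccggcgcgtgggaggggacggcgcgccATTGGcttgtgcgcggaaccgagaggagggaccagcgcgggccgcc
STON2: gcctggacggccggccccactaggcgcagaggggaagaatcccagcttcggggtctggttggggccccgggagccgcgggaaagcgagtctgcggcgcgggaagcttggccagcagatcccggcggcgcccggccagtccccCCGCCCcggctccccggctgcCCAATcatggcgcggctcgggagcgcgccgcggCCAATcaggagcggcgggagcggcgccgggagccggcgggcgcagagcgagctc

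The single KCNJ2 window had a GC content of 77.6% with 32 CpG, against a median of 58% and 11 CpG over 35114 RefSeq promoter windows of the same length. The TP53I11 window shown had 81.2% GC with 36 CpG and the STON2 window 77.6% with 34 CpG, and each was picked for its GC content from 3 windows, which favours high values. The other TP53I11 windows had 65.6% GC with 22 CpG and 48.4% with 5, and the other STON2 windows 46.0% with 2 and 45.6% with 4. The KCNJ2 window held 1 GC box and 1 CCAAT box, the TP53I11 window 2 overlapping GC boxes and 1 CCAAT box, and the STON2 window 1 GC box and 2 CCAAT boxes. GC boxes were found in 42.6% and CCAAT boxes in 32.0% of all windows, so both are common letters. None of the 3 windows shown held the AP-1, E-box, TATA, GATA or RUNX letters, which 6.57%, 6.35%, 10.7%, 9.17% and 11% of all windows hold. Of the windows not shown, both of STON2 held a RUNX match, 1 with an AP-1 match and the other with a GATA and a CCAAT match, and those of TP53I11 held none of the 7 motifs. LRRC6, KREMEN1, DOCK5, GFOD1 and EPCAM have no sequence shown. A match describes letters only and is not a binding site.

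Exon reads per library were 42439957 to 63606344 in 11 libraries and 135592046 in parent control replicate 1, the library that stood apart in depth. Introns took between 26.3% of the exon and intron reads (that library) and 33.6% (treated knockout replicate 3). SLFN11 exon reads averaged 89.8 ± 1.72 CPM in treated knockout and 120.2 ± 2.38 CPM in treated parent cells (SD, n = 3 each; log2 difference -0.42, edgeR adjusted p = 1.89e-05), so SLFN11 RNA was still present in the cells labelled knockout. Of 22 T lymphoblast markers all were measured, with a summed level of 2830 to 2917 CPM in treated knockout and 2188 to 2204 CPM in treated parent libraries, and of 3607 to 3645 CPM in untreated knockout and 3039 to 3266 CPM in untreated parent libraries. Between treated groups 15 of them were higher in the knockout and 1 was lower, against 13.4% of all genes called higher and 14.6% called lower. Of 5 tested B lineage markers 3 were higher and 1 lower, with a summed level of 44.69 to 51.49 CPM in treated knockout and 28.97 to 31.32 CPM in treated parent libraries. Epithelial markers other than EPCAM summed to 2.87 to 3.76 CPM in treated knockout and 1.83 to 2.47 CPM in treated parent libraries, and to 2.14 to 2.47 CPM in untreated knockout and 1.59 to 1.82 CPM in untreated parent libraries. In treated cells these 3 sums were thus higher in the knockout without overlap, as EPCAM was. So was the erythroid sum (12.68 to 13.21 CPM in treated knockout and 9.107 to 10.01 CPM in treated parent libraries). The myeloid sum was lower without overlap (0.898 to 1.233 CPM in treated knockout and 1.276 to 1.466 CPM in treated parent libraries). Fibroblast and endothelial sums overlapped. The part of these shifts in the values below was not tested.

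In untreated cells the 8 genes differed by a log2 difference of 2.34 (EPCAM) to 6.03 (KCNJ2), with 2.497 CPM (KCNJ2) as the lowest knockout mean. CPM is the usual depth-scaled read count, here with edgeR's TMM factors. Another 36 genes were as far apart and as high, so the 8 are a selection from 44, and TYRO3, at 2.34, stood nearest to EPCAM. A gene was called at an adjusted p below 0.05 in edgeR's quasi-likelihood test over 23546 genes. Of all genes, 8.26% were called higher in untreated knockout cells, and the groups did not overlap, with the knockout higher, for 16.1%. All 8 genes belonged to both sets, which their choice fixed. Of the 36 other genes, 32 were also called higher in treated knockout cells. The exceptions, named after their values were seen, were RHOB, RP11-423F24.3, MT-RNR1 and DUSP4, with treated differences of 0.39, -0.07, -0.26 and -0.69.

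**Figure D1:**
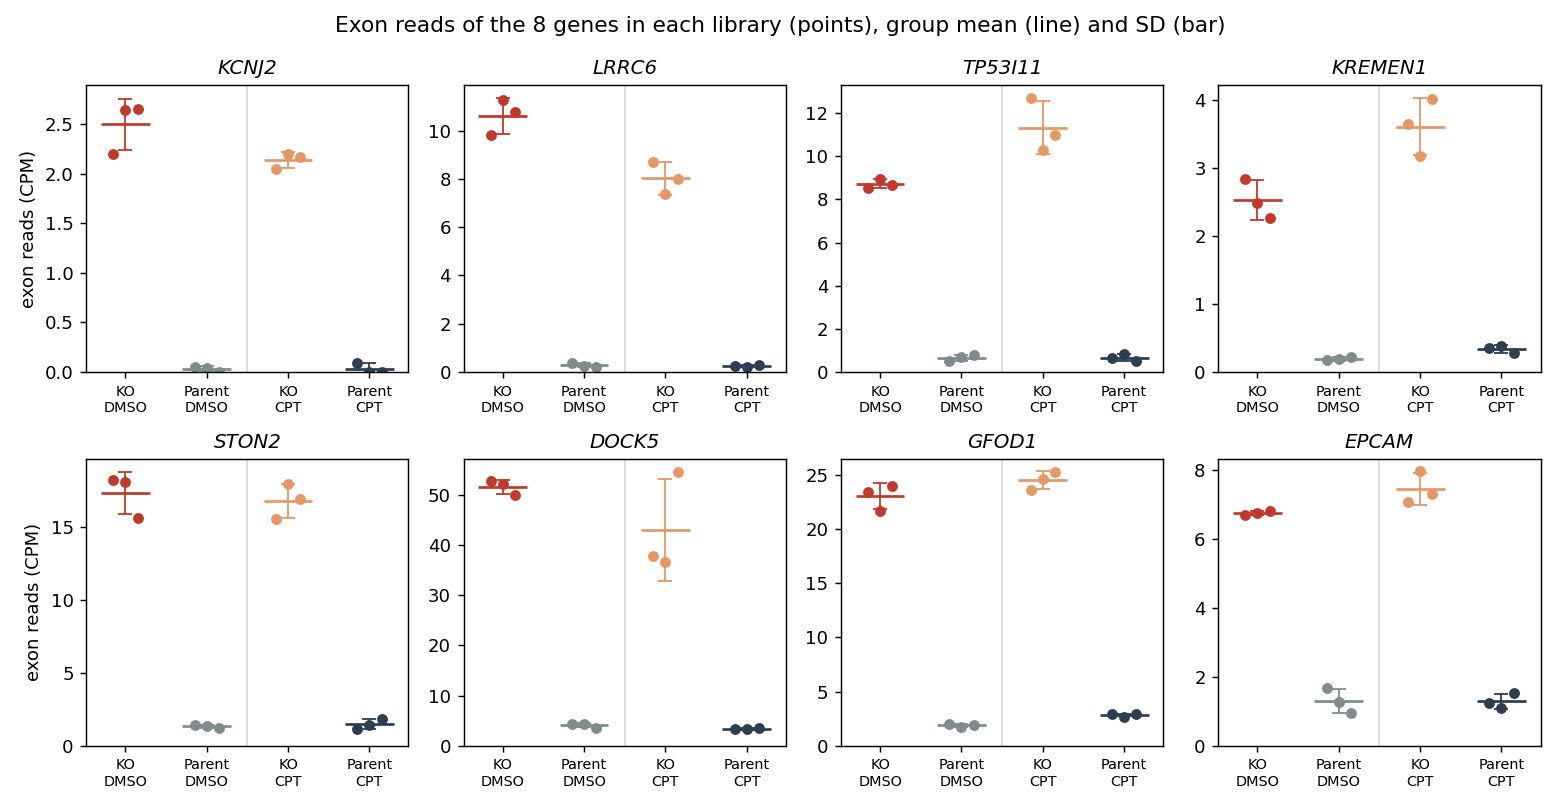
Exon reads (CPM, linear axis from 0) of each of the 8 genes in untreated (DMSO) knockout and parent cells and in camptothecin-treated (CPT) knockout and parent cells. Points are libraries, lines group means and bars SD (n = 3). The lowest knockout library of every gene lies above its highest parent library with and without the drug, for example 2.05 against 0.0945 CPM for KCNJ2 in treated cells.

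In camptothecin-treated cells all 8 genes were again higher in the knockout, each by more than 2 on the log2 scale. This count of 8 of 8 stands against 13.4% of all genes called higher and 0.956% called higher by at least 2. KCNJ2, with 0 to 6 exon reads per parent library, passed the read filter only through knockout libraries, where it was high. The filter thus favoured its call. The median difference of the 8 genes was 3.59, and that of all genes tested 0.0045. The treated libraries of the 8 genes did not overlap between genotypes, which held in the same direction for 22.6% of all genes. The treated knockout cells derive from the same knockout line as the untreated ones, so the comparison repeats the difference in other libraries, not in another line.

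KCNJ2 (hg19 chr17:68164813-68176188), the potassium channel gene, came closest to absence in the parent. Its exon reads numbered 113, 134 and 127 in untreated knockout libraries, against 6, 2 and 0 in untreated parent libraries. In treated cells 94, 130 and 104 reads stood against 6, 0 and 0. All 6 of the treated parent reads came from 1 library, replicate 1, and all knockout libraries held at least 94. The ratio of summed reads, scaled for depth, was 64.3 in treated cells (95% exact interval 29.2 to 176, counting error only) and 67.4 in untreated cells (33.9 to 157). The fitted treated difference was 5.92 ± 0.545 (SE; edgeR adjusted p = 3.24e-07). It varied from 5.35 to 9.95 over the alternatives, and stood at 9.95 without parent camptothecin replicate 1, where no treated parent read was left.

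EPCAM (hg19 chr2:47572296-47614739), the epithelial adhesion gene, was the least divided of the 8. Untreated knockout libraries held 6.71, 6.76 and 6.81 CPM, against 1.67, 1.28 and 0.948 CPM in untreated parent libraries. With camptothecin the levels were 7.08, 7.97 and 7.31 CPM in knockout and 1.23, 1.10 and 1.54 CPM in parent cells. The parent thus kept a measurable level, and the SD of the 3 untreated knockout libraries was only 0.0521 CPM. The treated difference was 2.53 ± 0.176 (SE; edgeR adjusted p = 1.2e-08), a 5.79-fold higher level. Of 8 other epithelial markers, 2 had enough reads to be tested: CLDN7 was higher by 0.90 ± 0.225 (adjusted p = 0.00616) and KRT8 was not called (0.25). CDH1 and KRT18 had 0 CPM in treated knockout cells, and KRT19 averaged 0.0113 CPM.

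KREMEN1 (hg19 chr22:29469065-29564320), the Dickkopf receptor gene, was low in both genotypes. It had 2.84, 2.48 and 2.26 CPM in untreated knockout and 0.170, 0.191 and 0.215 CPM in untreated parent libraries. Treated knockout libraries held 3.64, 3.18 and 4.01 CPM and treated parent libraries 0.347, 0.389 and 0.275 CPM. The parent values rest on 10 to 24 reads per library. The treated difference was 3.41 ± 0.215 (SE; edgeR adjusted p = 3.44e-09).

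STON2 (hg19 chr14:81726999-81902808), the endocytic adaptor gene, had 18.3, 18.1 and 15.7 CPM in untreated knockout cells, against 1.43, 1.36 and 1.25 CPM in untreated parent cells. With camptothecin it had 15.6, 17.9 and 16.9 CPM in knockout and 1.17, 1.44 and 1.85 CPM in parent cells. Knockout libraries lay within a narrow band with and without the drug. The treated difference was 3.51 ± 0.14 (SE; edgeR adjusted p = 1.3e-11), an 11.4-fold higher level.

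DOCK5 (hg19 chr8:25042237-25275597), the RAC exchange factor gene, had the most reads of the 8. Its levels were 52.67, 52.17 and 50.02 CPM in untreated knockout libraries and 4.33, 4.39 and 3.62 CPM in untreated parent libraries. Treated knockout libraries spread more widely, at 37.8, 36.5 and 54.6 CPM, against 3.39, 3.25 and 3.52 CPM in treated parent libraries. Knockout camptothecin replicate 3 was the high one. The treated difference was 3.67 ± 0.14 (SE; edgeR adjusted p = 3.08e-11) and 3.46 without that library.

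LRRC6 (hg19 chr8:133584319-133687837), the dynein arm assembly gene, stood second to KCNJ2 in the size of its difference. It had 9.82, 11.2 and 10.8 CPM in untreated knockout and 0.391, 0.268 and 0.215 CPM in untreated parent libraries. Treated knockout libraries held 8.71, 7.37 and 7.98 CPM and treated parent libraries 0.268, 0.194 and 0.293 CPM. Parent levels rest on 10 to 46 reads. The treated difference was 4.99 ± 0.194 (SE; edgeR adjusted p = 9.03e-12), a 31.7-fold higher level.

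TP53I11 (hg19 chr11:44907453-44972839), named for its induction by p53, had 8.55, 8.95 and 8.69 CPM in untreated knockout libraries, against 0.510, 0.707 and 0.775 CPM in untreated parent libraries. In treated cells it had 12.7, 10.3 and 11.01 CPM in the knockout and 0.630, 0.842 and 0.513 CPM in the parent. The treated difference was 4.09 ± 0.178 (SE; edgeR adjusted p = 3.21e-11), and the same 4.09 over the 4050 of its 5300 exon bases that no other gene overlaps.

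GFOD1 (hg19 chr6:13358061-13487893), the oxidoreductase-domain gene, had 23.5, 21.7 and 24.0 CPM in untreated knockout libraries and 1.99, 1.78 and 1.87 CPM in untreated parent libraries. Treated knockout libraries held 23.6, 24.6 and 25.3 CPM, against 2.92, 2.69 and 2.91 CPM in treated parent libraries. Its treated difference was 3.11 ± 0.0893 (SE; edgeR adjusted p = 2.19e-13), the most precise of the 8. The parent groups did not overlap each other, whereas the knockout groups did.

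Levels can be set side by side only per exon length. In untreated knockout cells the order was LRRC6 with 4.803 CPM per kb of exon, DOCK5 with 3.23, EPCAM with 2.68, STON2 with 2.60, GFOD1 with 2.16, TP53I11 with 1.65, KCNJ2 with 0.448 and KREMEN1 with 0.317. EPCAM and STON2 overlapped between libraries, and the other neighbours in this order did not. In untreated parent cells EPCAM led with 0.515 CPM per kb, DOCK5 had 0.258 and LRRC6 only 0.132. KCNJ2 was last in the parent at 0.00533 CPM per kb.

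Intron reads, which come largely from unspliced RNA, gave the same direction in treated cells. All 8 genes were called higher in the knockout over 19908 genes tested, against 15.5% of all genes, and the treated libraries of all 8 did not overlap, against 23% of all genes with the knockout higher. KCNJ2 had 6, 14 and 10 intron reads in treated knockout libraries and 0 in each treated parent library, an at least 11.2-fold higher level with a floor of 3 counts over the parent group. Untreated knockout libraries had 11, 5 and 10 reads against 0, at least 12.1-fold. KCNJ2 introns thus passed the read filter only through knockout libraries. So did KREMEN1 introns, with 4 to 19 reads per parent library. The filter thus favoured both calls. With only the treated groups fitted KCNJ2 was not tested, and the other 7 genes were called higher. LRRC6 had 38.3, 40.9 and 52.01 intron CPM in treated knockout and 1.83, 2.28 and 1.63 in treated parent cells, a difference of 4.51 ± 0.151 (SE; edgeR adjusted p = 5.54e-15). DOCK5 had 121, 109 and 139 intron CPM in treated knockout and 8.20, 8.27 and 10.1 in treated parent cells, a difference of 3.80 ± 0.109. These differences were of the same order as those in exon reads.

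TP53I11 differed in treated introns by 4.11 ± 0.226, STON2 by 3.61 ± 0.123, KREMEN1 by 3.35 ± 0.462 and GFOD1 by 2.91 ± 0.181 (SE; edgeR adjusted p from 5.8e-15 for STON2 to 7.79e-06 for KREMEN1). With KCNJ2 at its bound, the median of the 8 was 3.55, and that of all genes 0.015. EPCAM was again the smallest, with 2.84, 2.35 and 2.93 intron CPM in treated knockout and 1.07, 0.541 and 1.07 in treated parent cells (1.60 ± 0.51 SE; edgeR adjusted p = 0.0269). Its call was lost in 5 of 12 leave-one-out fits (adjusted p 0.0562 to 0.111), those without treated parent replicate 1, 2 or 3, or treated knockout replicate 1 or 3. In untreated cells the EPCAM intron reads overlapped: 3.07, 3.97 and 1.92 CPM in the knockout against 2.71, 1.08 and 0.297 CPM in the parent. The high parent value is replicate 1, the deepest library, where 28 of the 119 intron reads were unique to EPCAM. The untreated intron difference was 1.02 with that library, 2.09 without it and 2.06 with unique intron reads.

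**Figure D2:**
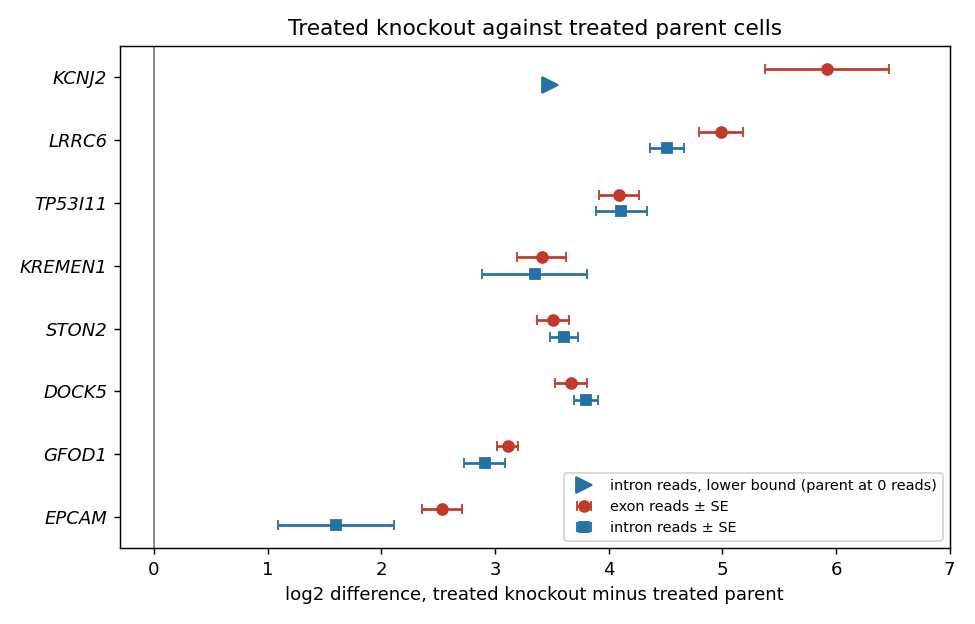
Log2 difference between treated knockout and treated parent cells for exon reads (circles) and intron reads (squares), with SE from edgeR. The KCNJ2 intron value is a lower bound, log2 3.49, because no parent library held an intron read. All values are above 0, and exon and intron differences lie closest for TP53I11 (4.09 and 4.11).

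In knockout cells camptothecin changed the exon level of none of the 8 genes past the test, and fitted responses lay between -0.405 and 0.512. Since the untreated knockout libraries helped to choose the genes, these responses share libraries with the choice, which favours falls. By edgeR 0 of the 8 were called, against 16.6% of all genes, 4 had an unadjusted p below 0.05, and DESeq2 called 3 (TP53I11, KREMEN1 and LRRC6). For the unadjusted and the DESeq2 count the share of all genes is not given, so neither is read against a background. Treated and untreated knockout libraries did not overlap for 5 of the 8, against 38.5% of all genes. TP53I11 (12.7, 10.3 and 11.01 CPM treated, against 8.55, 8.95 and 8.69 CPM untreated) stood at 0.375 ± 0.143 (edgeR adjusted p = 0.087). KREMEN1 (3.64, 3.18 and 4.01 CPM against 2.84, 2.48 and 2.26 CPM) stood at 0.512 ± 0.18 (adjusted p = 0.0631), and LRRC6 (8.71, 7.37 and 7.98 CPM against 9.82, 11.2 and 10.8 CPM) at -0.405 ± 0.137 (adjusted p = 0.0543).

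The remaining responses in knockout cells were -0.265 ± 0.119 for DOCK5 (edgeR adjusted p = 0.157), -0.222 ± 0.331 for KCNJ2, 0.142 ± 0.157 for EPCAM, 0.0893 ± 0.0783 for GFOD1 and -0.0455 ± 0.118 for STON2. DOCK5 depended on 1 library: without knockout camptothecin replicate 3 its response was -0.47 (adjusted p = 0.000849). Without untreated parent replicate 1, which enters the common spread, LRRC6, TP53I11 and KREMEN1 were called (adjusted p 0.00653, 0.0104 and 0.0327), and LRRC6 also without untreated parent replicate 3 (0.0427). In knockout introns TP53I11 (0.521 ± 0.175, edgeR adjusted p = 0.0435) and GFOD1 (0.472 ± 0.158, adjusted p = 0.0452) were called higher, against 16.9% of all genes called. The TP53I11 call ended without any single knockout library or without treated parent replicate 1 (adjusted p 0.0553 to 0.187). The GFOD1 call ended without any single untreated knockout library, treated knockout replicate 3 or treated parent replicate 3 (0.0616 to 0.333), and with unique intron reads (0.205). Without treated knockout replicate 3 the GFOD1 intron value was 0.23.

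In parent cells 2 of the 8 genes rose with camptothecin in exon reads, against 33.9% of all genes called. Low exon reads in untreated parent libraries helped to choose the genes, which favours a rise here. GFOD1 had 2.92, 2.69 and 2.91 CPM in treated and 1.99, 1.78 and 1.87 CPM in untreated parent libraries, a rise of 0.584 ± 0.0971 (edgeR adjusted p = 0.00016) that kept its call under all 19 alternatives. GFOD1 introns rose as well, by 0.695 ± 0.209 (adjusted p = 0.0171), the sole intron call among the 8 against 26.3% of all genes. That intron call ended without untreated parent replicate 1, without treated parent replicate 2 or 3 (adjusted p 0.0523 to 0.101), and with unique intron reads (0.274). KREMEN1 had 0.347, 0.389 and 0.275 CPM in treated and 0.170, 0.191 and 0.215 CPM in untreated parent libraries (0.844 ± 0.27, adjusted p = 0.0216). The KREMEN1 call ended under 6 of 19 alternatives, among them the fits lacking untreated parent replicate 1 (adjusted p = 0.113) or treated parent replicate 1 or 2 (0.057 and 0.0867). Its introns stood at -0.40 ± 0.545, on 4 to 19 reads per library.

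The difference of the responses, knockout minus parent, was called for GFOD1 alone: -0.495 ± 0.125 (edgeR adjusted p = 0.0244), against 6.32% of all genes called. This contrast subtracts the untreated difference that chose the genes, so the choice favours negative values. The GFOD1 call ended without filter (0.0747), with total gene reads (0.0541) and in 7 of 12 leave-one-out fits (0.0548 to 0.077), those lacking untreated parent replicate 2, treated parent replicate 1 or 3, untreated knockout replicate 1 or 3, or treated knockout replicate 1 or 2, with values of -0.55 to -0.42 throughout. The other 7 genes had differences between -0.332 (KREMEN1) and 0.315 (TP53I11) with SE of 0.188 to 1.02. In introns 0 of the 8 were called by edgeR or DESeq2, 0 had an unadjusted p below 0.05 in edgeR, and 5.82% of all genes were called.

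**Figure D3:**
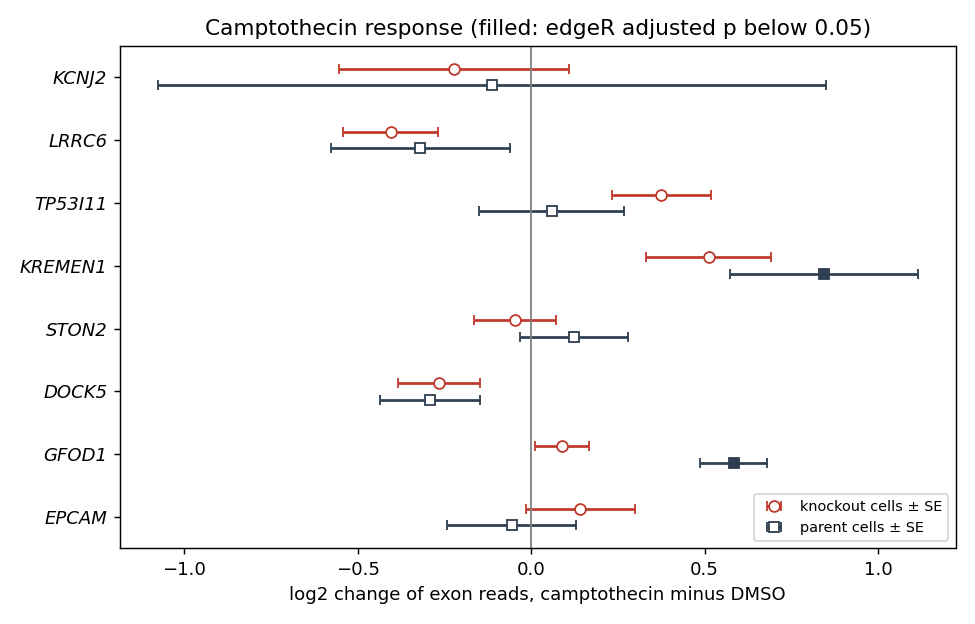
Log2 change of exon reads with camptothecin in knockout (circles) and parent cells (squares), with SE from edgeR. Filled symbols are called, and these are KREMEN1 and GFOD1 in parent cells. The KCNJ2 parent value rests on 14 reads in all.

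Exon reads per intron read were lower in treated than in untreated knockout cells for the 3 genes with the most intron reads. High exon reads in untreated knockout cells helped to choose the genes, which favours this direction. DOCK5 had 0.73 to 0.837 exon reads per intron read in treated knockout libraries, against 1.05 to 1.16 in untreated knockout libraries. LRRC6 had 0.326 to 0.53 against 0.668 to 0.728, and STON2 0.47 to 0.593 against 0.644 to 0.731. These ranges did not overlap for 3 of the 8 genes, against 21.1% of 17241 genes with intron reads in all knockout libraries that were lower without overlap. GFOD1 overlapped, with 1.26 to 2.17 against 2.05 to 2.69. KCNJ2, TP53I11, KREMEN1 and EPCAM overlapped as well, and the summed EPCAM ratio was higher in treated knockout cells (6.34 against 5.42). In parent cells the same 3 genes overlapped, with 0.817 to 1.0 in treated and 0.75 to 1.23 in untreated libraries for DOCK5, 0.203 to 0.421 and 0.278 to 0.687 for LRRC6, and 0.454 to 0.815 and 0.535 to 0.624 for STON2. Lower ratios without overlap were found there in 0 of the 7 genes with intron reads, against 16.6% of all genes, and the difference between genotypes was not tested. In parent cells the KREMEN1 ratio was higher without overlap, at 2.75 to 3.75 treated and 1.05 to 2.5 untreated, on 4 to 19 intron reads. The share of intron reads in the whole library was also higher, 30.4% to 33.6% in treated and 28.6% to 29.7% in untreated knockout libraries, and its part in these ratios was not tested. SLFN11 ratios differed by genotype, with 1.63 to 1.97 in knockout and 3.37 to 4.30 in parent libraries.

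**Figure D4:**
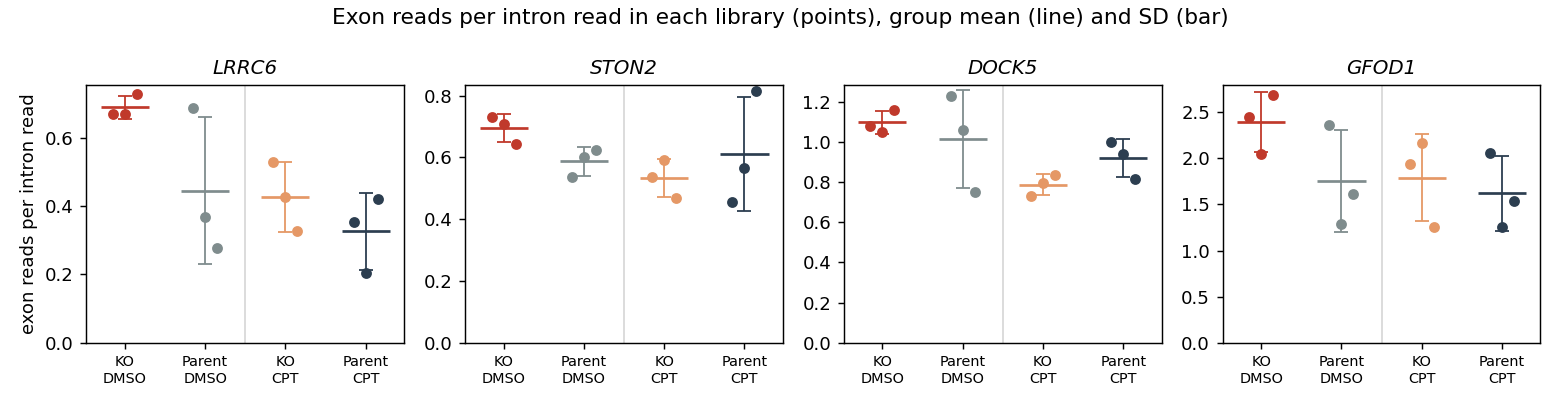
Exon reads per intron read of the 4 genes with the most intron reads, in the 4 groups (points are libraries, lines means, bars SD, n = 3). In knockout cells the camptothecin libraries of LRRC6, STON2 and DOCK5 lie below all DMSO libraries, for example at most 0.837 against at least 1.05 for DOCK5, as for 21.1% of all genes. In parent cells the libraries of these genes overlap.

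The 8 loci lie on 7 chromosomes, LRRC6 and DOCK5 sharing chromosome 8 far apart. Around them 82 tested genes were taken as neighbours, 5 on each side of every gene plus 2 that overlap a member. Genes with too few reads to be tested were passed over, so adjacent or next below means nearest among tested genes. In treated cells 23 of the 82 neighbours were higher in the knockout, against 13.4% of all genes, and 4 were lower, against 14.6%. In either direction 32.9% were called, against 28% of all genes. In untreated cells 14 were higher, against 8.26% of all genes, and 6 were lower. Of all 23546 genes 3697 were called there, 1945 higher and the rest lower. In either direction 24.4% were called there, against 15.7% of all genes. The median neighbour differed by 0.29, and 57 of 82 lay within 0.5 of 0. Of 26 neighbours within 100 kb, 9 were higher and 1 lower in treated cells, 38.5% called against 28% of all genes. The 2 overlapping genes count among the higher ones throughout, and their reads cannot be told apart from those of TP53I11 and GFOD1.

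At the KREMEN1 locus both adjacent genes were higher. ZNRF3, a membrane ubiquitin ligase that removes Wnt receptors, lies 15.6 kb away and had 4.23, 4.83 and 4.97 CPM in treated knockout and 1.92, 1.56 and 1.48 CPM in treated parent libraries (1.5 ± 0.178 SE; edgeR adjusted p = 6.63e-06). EMID1, 37.5 kb away on the other side, had 13.3, 14.3 and 11.9 CPM against 4.25, 3.84 and 3.92 CPM (1.72 ± 0.108; adjusted p = 3.44e-09). Neither gene shares exon bases with another gene. The next genes out, CTA-292E10.6 (0.47) and RHBDD3 (-0.12), were not called. Farther out, GAS2L1 (138 kb) was higher by 0.62 and XBP1 (272 kb) by 0.20 (edgeR adjusted p = 0.000157 and 0.0361). Of the 10 KREMEN1 neighbours 4 were thus called higher and 0 lower. CTA-292E10.6, RHBDD3, GAS2L1 and XBP1 are named after their values were seen.

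At the TP53I11 locus TSPAN18 overlaps the member and was called at 4.08 ± 0.713 (edgeR adjusted p = 0.000277) with 27, 29 and 34 exon reads in treated knockout and 4, 2 and 0 in treated parent libraries. Of its 5871 exon bases only 367 are free of other genes, and these held 0 reads in all 12 libraries. Intron reads unique to TSPAN18 numbered 2, 10 and 4 in treated knockout and 4, 12 and 8 in treated parent libraries. Its reads therefore cannot be told apart from those of TP53I11. Farther out, MAPK8IP1 (934 kb) was higher by 1.88 ± 0.215 (adjusted p = 4.39e-06) and RP11-618K13.2, which has no exon base of its own, by 1.47 ± 0.385. The adjacent RPL34P22 (0.86) and PRDM11 (0.37) were not called.

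AL583828.1 lies inside GFOD1, has no exon base of its own and was called at 2.74 ± 0.455, so its reads cannot be told apart from those of GFOD1. The adjacent TBC1D7 (0.07) was not called and SIRT5, a mitochondrial deacylase gene, stood at 0.32 (edgeR adjusted p = 0.0333). Beside DOCK5, GNRH1 lies 1.18 kb away and was higher by 0.94 ± 0.247 (adjusted p = 0.00838) and RP11-395I14.2 by 1.0 ± 0.325 (adjusted p = 0.0287). KCTD9, at 9.77 kb and named after its value was seen, was higher by 0.43 (edgeR adjusted p = 0.00336). Of the 10 DOCK5 neighbours 4 were called higher and 1 lower. Beside EPCAM, BCYRN1, 0.64 kb away and with no exon base of its own, stood at -0.55 (adjusted p = 0.422).

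The tested genes nearest to KCNJ2, RP1-193H18.2 (0.30) and SLC39A11 (0.22), lie 615 and 2470 kb away and were not called. Within 100 kb of KCNJ2 lie 3 genes with too few reads to be tested. Next to LRRC6, TMEM71 was lower at -0.36 ± 0.119 (edgeR adjusted p = 0.0331) and EFR3A stood at 0.05. Next to STON2, SEL1L was higher by 0.41 ± 0.0578 (adjusted p = 4.17e-05), DYNLL1P1 stood at 0.29, and CTD-2341M24.1, 4500 kb away, was lower at -1.04 ± 0.256 (adjusted p = 0.00523).

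**Figure D5:**
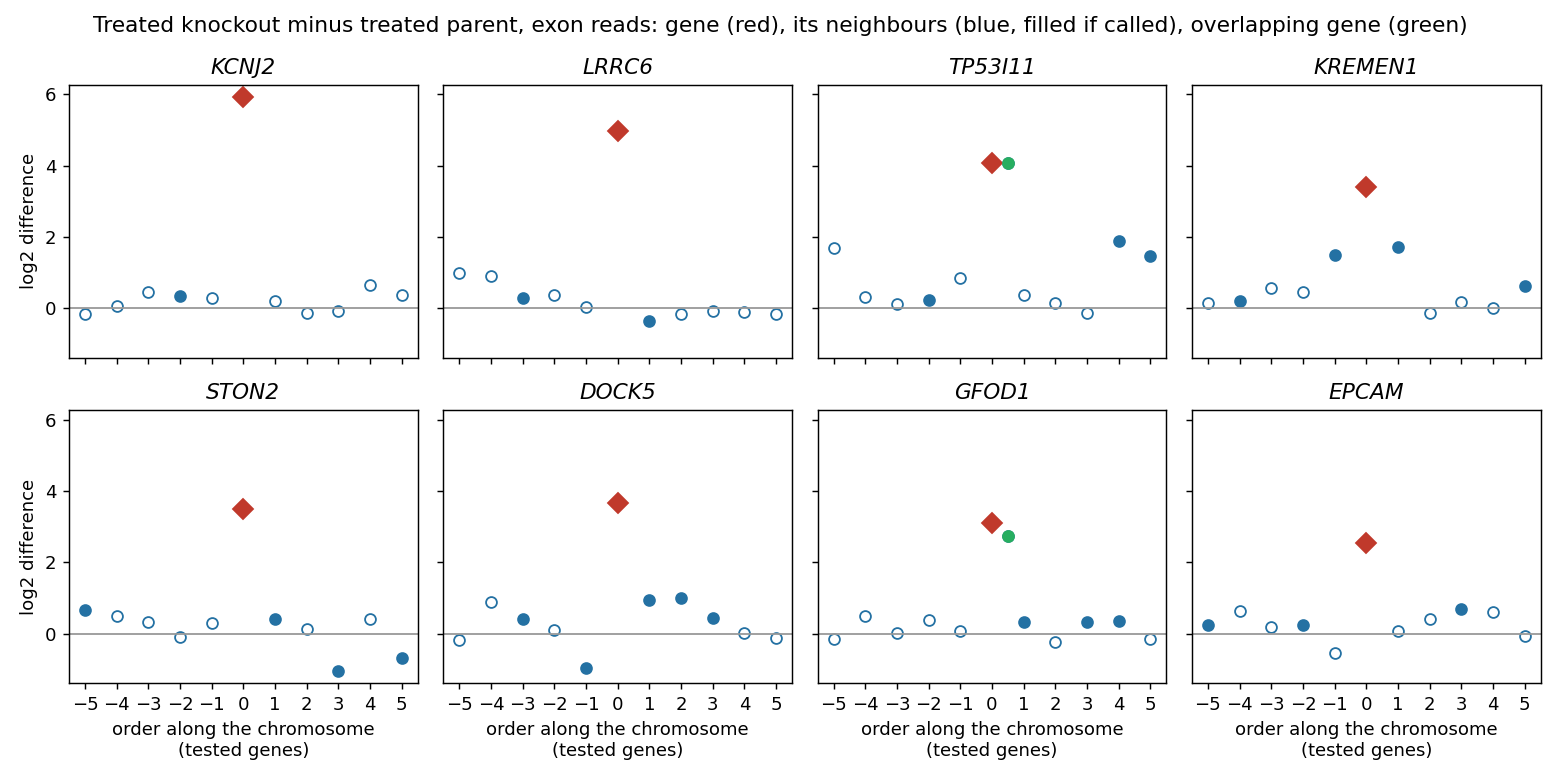
Log2 difference of exon reads between treated knockout and treated parent cells for each of the 8 genes (red diamond at 0), for its 5 nearest tested genes on each side in chromosome order (blue, filled if called by edgeR) and for a gene that overlaps it (green, drawn beside it). The red symbols lie between 2.53 and 5.92, and 57 of the 82 neighbours lie within 0.5 of 0.

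The profiles of the 8 genes over the 12 libraries were alike in part by choice. As a description, likeness was the root mean square difference between centred log2 CPM profiles, in log2 units. It was smallest between KREMEN1 and GFOD1 (0.234) and largest between KCNJ2 and EPCAM (1.55). Among other genes, those nearest the mean profile of the 8 were GNG4 (0.289), a G protein gamma subunit gene, NPTX2 (0.292), which encodes a neuronal pentraxin, MORC4 (0.396), SLC6A20 (0.446), a transporter gene, and TMEM213 (0.469). GNG4 averaged 33.2 CPM in treated knockout and 2.83 CPM in treated parent cells, and NPTX2 26.2 and 2.27 CPM. NPTX2 was nearest to TP53I11, KREMEN1, STON2 and GFOD1, GNG4 to LRRC6 and DOCK5, KLF3 to KCNJ2 (1.13) and CNN3 to EPCAM (0.194), followed by KIAA0226L (0.215).

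Relatives of the 8 genes in family and pathway lists, the members left out, showed mostly smaller differences. The background is 13.4% of genes called higher and 14.6% called lower in treated knockout cells. Of 8 tested genes for Wnt receptors and their modulators, 6 were higher and 1 was lower, with a median of 0.56. LRP6, a Wnt co-receptor that KREMEN1 acts on, was lower at -3.10 ± 0.169 (edgeR adjusted p = 1.24e-09; 2.41 CPM in treated knockout and 20.6 CPM in treated parent cells). Its paralog LRP5 was higher by 2.26 ± 0.101 (31.4 against 6.58 CPM), and ZNRF3 was described above. KREMEN2 was not called (0.34).

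Of 5 tested epithelial adhesion and keratin genes, 3 were higher: the splicing factor ESRP1 by 2.96 ± 0.206 (3.75 CPM in treated knockout and 0.481 CPM in treated parent cells), the tight junction genes OCLN by 0.91 ± 0.132 and CLDN7 by 0.90 ± 0.225. Of 14 DOCK, ELMO and RAC genes, 6 were higher and 2 lower, among them DOCK6 (2.07 ± 0.659, at 0.386 against 0.0905 CPM), DOCK4 (-0.61 ± 0.184) and DOCK9 (0.50 ± 0.0702). Of 15 clathrin adaptor and stonin genes, 3 were higher and 3 lower, with STON1 at 1.12 ± 0.162, ITSN2 at -0.44 ± 0.0815 and AP2B1 at 0.39 ± 0.0806. The medians of these 3 lists were 0.90, 0.20 and 0.062.

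Of 18 genes of the p53 list, 8 were higher and 5 lower, with a median of 0.20. Its largest differences were BBC3, an apoptosis gene (-2.20 ± 0.23), PHLDA3 (1.5 ± 0.291) and ZMAT3 (1.38 ± 0.0783). Of 9 dynein arm assembly factors only ZMYND10 was called, higher by 1.03 ± 0.199 (edgeR adjusted p = 0.0008). The median of that list was -0.052. The 6 tested inward rectifier genes had adjusted p of 0.462 to 0.891 (median difference 0.21), and GFOD2, the paralog of GFOD1, stood at -0.0042 ± 0.0749.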

How the data were processed

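RNA of 12 CCRF-CEM libraries (4 groups of 3) was sequenced on a HiSeq4000 paired-end run, per the labels' protocols. The deposited tables held whole-number counts of reads over exons, introns and whole genes, and over the stretches unique to a gene, per the file headers. Per the submitters' processing notes, which give no roles, the tools were STAR 2.5.4a, Picard 2.9.2, Trimmomatic 0.39 and Trim Galore 0.6.2, with build hg19. The table names mark duplicate-removed alignments, which compresses high counts. Counting tool, annotation and strand setting: not given in the sources used here. Reads of overlapping genes cannot be told apart.

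Genes absent from a library's table counted as 0 reads, and Y copies of pseudoautosomal genes were dropped. Exon and intron counts were each tested with edgeR 4.0.16 (R 4.3.3; TMM, filterByExpr, robust quasi-likelihood fit of 12 libraries with a mean per group, Benjamini-Hochberg adjusted p below 0.05 over all genes). The coefficient of variation was 11.7% for exon and 10.5% for intron counts. SE was derived from the test (unshrunken log2 difference over the root of F) and so restates it. Every adjusted p of a single gene is edgeR's unless DESeq2 1.42.0 is named. Intervals (95%, exact) and floors of 3 counts cover counting error only, since reads had no molecular identifiers. A count of 2 was added before log CPM for profiles. The fits were tested on simulated counts. Alternatives were library size alone, DESeq2, no filter, total gene reads, unique reads, only the groups compared, a replicate block and leaving out each library.

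Named were the 8 genes and SLFN11, neighbours that overlap, adjoin or were called by at least 1 (log2), the nearest profiles, and up to 3 called genes per family list. A few genes that this rule names are not reported here. The members, lists and rules were chosen with earlier results of these data known.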

Additional observations from a re-analysis of the deposited data

Results flagged for a closer look

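The camptothecin response differed between genotypes for GFOD1 among the 8 genes, by -0.49 (knockout minus parent; log2, edgeR adjusted p = 0.0244), with a rise in parent cells and no call in knockout cells. Among the adjacent neighbours, EFR3A beside LRRC6 differed by 0.43 (adjusted p = 0.0158) and SEL1L beside STON2 by 0.43 (adjusted p = 0.00353). SEL1L averaged 86.7 and 94.5 CPM in treated and untreated knockout cells, and 65.2 and 95.9 CPM in treated and untreated parent cells (n = 3 each). EFR3A averaged 38.05 and 38.95 CPM in treated and untreated knockout cells, and 36.7 and 50.6 CPM in treated and untreated parent cells. These differences use the untreated libraries that chose the 8 genes, and their cause was not tested.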

How the results depend on the processing

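All 8 genes stayed called higher in treated knockout cells, in exon reads, under each of 19 alternatives, at 2.35 to 5.11 (log2) for the 7 genes other than KCNJ2. In introns 7 to 8 were called without 1 library each, and 7 of the 7 tested with only the groups compared, where KCNJ2 was not tested. The exon calls in the knockout response moved from 0 to 3 with library size alone, 3 with DESeq2, 3 with only the groups compared, 2 with total gene reads, 2 with unique exon reads and 1 without filter, and ran from 0 to 3 without 1 library. The 2 parent response calls became 1 with total gene reads and 1 of 7 tested with only the groups compared (1 to 3 without 1 library). Without filter the count stayed at 2 with a change of gene. KREMEN1 lost its call (edgeR adjusted p = 0.0724), and DOCK5 was called lower (-0.31, adjusted p = 0.0258). DOCK5 was also called lower without treated knockout replicate 3 (-0.29, adjusted p = 0.015). The 1 call in the difference of responses became 0 without filter and 0 with total gene reads (0 to 1). The 2 intron calls in the knockout response became 1 with unique intron reads (0 to 3). For these response counts the shares of all genes under the alternatives are not given. Without 1 library, neighbours called numbered 20 to 41 in treated cells (41 without parent control replicate 1, the deepest library, in place of 27) and 14 to 27 in untreated cells. With unique exon reads 18 of 53 tested neighbours were called in treated cells (14 higher, 4 lower). Of all 15928 genes tested that way, 5464 were called (2675 higher, 2789 lower), so the share called in either direction was about the same. Of all genes, 5004 to 9313 were called without 1 library, in place of 6583. With library size alone 4982 genes were higher and 2202 lower in treated knockout cells, in place of 3153 and 3430, and the median of all genes was 0.124. Samples with the same replicate number did not deviate together (r from -0.0323 to 0.0428, 0 of 18 pairs over 0.1). No pairing by number was thus seen over all genes, and a shared deviation of fewer genes was not tested. The replicate block gave 8, 8, 0, 2, 1 and 2 member calls in the comparisons above (treated exon, treated intron, knockout response, parent response, difference and knockout intron response), 28 and 20 neighbours and 6453 genes, and changed no member call count. The causes of these changes were not tested. Treated parent libraries held 0 to 6 exon reads of KCNJ2, 12 to 17 of LRRC6 and 15 to 24 of KREMEN1, which limits their precision.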
